A study of Homo sapiens with 12 samples.

Results

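The 40 genes described here encode integrin chains, laminin chains, the chains of collagen IV, the nidogens NID1 and NID2, and the proteoglycans perlecan (HSPG2) and agrin (AGRN). They were taken from a list of gene symbols, and each was read from the probe set, a group of array probes summarised to 1 value, whose platform annotation gave exactly 1 symbol and whose mean over all arrays was highest. A probe set of this kind was found for 38 of the 40, out of 18417 genes that had one, and 37 of the 38 were bright enough to be tested, out of 16939 genes tested. ITGA1 was listed only on a probe set shared with PELO and was not used, LAMA3 was not analysed here, and ITGA8 lay between 2.91 and 3.75 and passed the brightness cut, the 20th percentile of an array, on 1 of 12 arrays.

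The 12 Affymetrix whole-transcript arrays measured mRNA of established human lung cancer cell lines, the adenocarcinoma line A549 and HTB56 (Calu-6). A3R is A549 after 3 rounds of selection in mice, in which cells injected into a vein formed nodules in the lungs, and A0R is its unselected parent. H3R is HTB56 after 3 such rounds, and H0R is its unselected parent. Each of the 4 groups has 3 arrays, and all 12 samples are labelled as untreated with 5-azacytidine. The sources used here give neither the mouse strain nor the way cells were recovered from the lungs, and the labels name 1 selected line for each parent, so each selected group may stand for a single derivation. The labels do not say whether replicates were separate cultures, so each p-value measures only the spread between these samples.

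Basement membranes are thin sheets of extracellular matrix that underlie epithelia and surround blood vessels, and in the lung they lie between airway or alveolar epithelium and capillaries. Laminins, trimers of an alpha, a beta and a gamma chain, and collagen IV, a network built from trimers of its alpha chains, form separate polymers that nidogens and perlecan link. Integrins are surface receptors made of an alpha and a beta chain, and the pairing decides whether a cell binds laminin, collagen, or matrix proteins that carry the arginine-glycine-aspartate (RGD) motif.

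The collagen IV genes lie in head-to-head pairs that are transcribed away from each other. The promoter windows of the pairs COL4A5 with COL4A6 and COL4A1 with COL4A2 are shown because their genes gave the highest values of selected over unselected A549 cells within the collagen IV family. Each window runs from 250 bases before to 50 bases after a gene's start in RefSeq (GRCh38.p14) and is read 5′ to 3′ on the strand of the gene, and capitals mark the stretch that the windows of a pair share, read on opposite strands. A window was found for 31 of the 40 genes.
COL4A6: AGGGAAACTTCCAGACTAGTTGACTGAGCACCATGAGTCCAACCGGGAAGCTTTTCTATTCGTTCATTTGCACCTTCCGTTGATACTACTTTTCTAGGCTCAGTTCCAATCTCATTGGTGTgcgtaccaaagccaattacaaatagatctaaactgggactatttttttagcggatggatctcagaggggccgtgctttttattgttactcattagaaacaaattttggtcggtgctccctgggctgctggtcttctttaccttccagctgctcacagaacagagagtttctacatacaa
COL4A5: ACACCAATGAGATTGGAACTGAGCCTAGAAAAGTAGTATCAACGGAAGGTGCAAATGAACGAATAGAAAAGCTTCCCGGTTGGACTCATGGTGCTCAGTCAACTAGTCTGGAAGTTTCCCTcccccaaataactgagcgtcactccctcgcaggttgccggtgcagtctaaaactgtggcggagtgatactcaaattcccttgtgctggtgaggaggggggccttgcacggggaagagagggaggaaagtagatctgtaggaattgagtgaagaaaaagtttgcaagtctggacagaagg
COL4A1: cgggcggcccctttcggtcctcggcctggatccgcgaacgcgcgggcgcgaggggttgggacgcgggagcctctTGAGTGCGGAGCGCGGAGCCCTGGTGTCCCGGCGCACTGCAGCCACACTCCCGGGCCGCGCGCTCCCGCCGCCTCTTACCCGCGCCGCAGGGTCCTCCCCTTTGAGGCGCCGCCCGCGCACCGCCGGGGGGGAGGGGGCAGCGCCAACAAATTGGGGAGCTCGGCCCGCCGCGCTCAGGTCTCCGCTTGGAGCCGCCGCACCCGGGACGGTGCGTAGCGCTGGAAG
COL4A2: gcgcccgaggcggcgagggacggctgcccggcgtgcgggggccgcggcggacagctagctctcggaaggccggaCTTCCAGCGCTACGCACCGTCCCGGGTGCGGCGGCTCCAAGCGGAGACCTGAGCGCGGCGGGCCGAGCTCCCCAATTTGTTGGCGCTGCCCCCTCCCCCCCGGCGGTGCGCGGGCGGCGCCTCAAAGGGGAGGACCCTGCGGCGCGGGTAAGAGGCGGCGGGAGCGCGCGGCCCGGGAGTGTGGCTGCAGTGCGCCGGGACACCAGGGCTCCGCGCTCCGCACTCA
The COL4A6 window is chrX:108439409-108439708 on the minus strand, and the COL4A5 window is chrX:108439588-108439887 on the plus strand. Their starts lie 380 bases apart, and the windows share 121 bases. COL4A6 has 2 listed windows, and the one nearer to COL4A5 is printed. The COL4A1 window is chr13:110307108-110307407 on the minus strand and the COL4A2 window chr13:110307034-110307333 on the plus strand, with starts 127 bases apart and 226 bases in common. The COL4A6 and COL4A5 windows hold 7 and 8 CpG dinucleotides, and the COL4A1 and COL4A2 windows hold 45 each. Over all 35116 windows the median was 14 CpG and the 90th percentile 37, so the windows of the pair on X lie below the median and those of the pair on 13 above the 90th percentile. CCAAT, searched on both strands, occurs in 34.6% of all windows and 3, 2, 1 and 1 times in the COL4A6, COL4A5, COL4A1 and COL4A2 windows, where overlapping windows count the same site again. GGGCGG occurs in 45.0% of windows, 2 times in the COL4A1 window and 1 time in the COL4A2 window, and the letters are in neither window of the pair on X. TATAAA, in 11.5% of windows, is in none of the 4. These matches describe letters only.

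All expression values are log2 RMA signals, so 1 unit is a 2-fold difference, and levels of different genes on such a scale cannot be set against each other. Array medians lay between 5.55 and 5.67, and within a group any pair of arrays had a Pearson r over probe sets between 0.988 and 0.995. A gene was called higher or lower at a limma adjusted p below 0.05 over all 16939 genes. The 3 arrays per group limit the precision. A0R replicate 2 stood apart: over 14 genes that both HTB56 groups express brightly and A3R hardly, its median signal was 4.96. On A0R replicates 1 and 3 it was 3.92 and 3.94, and on the A3R arrays, dim here by the choice of genes, 3.95 to 4.08. Over 34 genes that both A549 groups express brightly and H3R hardly, H0R replicate 2 had a median of 4.32, against 4.02 and 4.09 on H0R replicates 1 and 3. The H3R arrays, dim there by the choice of genes, had 3.85 to 4.04. LAMA4 meets the rule for those 14 genes, so its own high value on A0R replicate 2 is part of that median. For LAMA4, values without that array are therefore no separate check. The changes of LAMA4, ITGA2 and the called collagen IV genes are given with and without A0R replicate 2. The epithelial keratins KRT8 and KRT18 were bright in all groups (mean signal at least 11.2 and 12.6), whereas the lung lineage factor NKX2-1 was dim (4.14 to 4.27), and the epithelial cadherin CDH1 averaged 4.5 in H3R and 4.55 in H0R, against 8.68 in A3R and 9.53 in A0R. The keratin KRT19 was also dimmer in HTB56 (6.22 in H3R and 6.52 in H0R, against 9.96 in A3R and 8.82 in A0R). Of the 7 epithelial markers tested, KRT19 was called higher (1.14, limma adjusted p = 0.000461) and CDH1 lower (-0.85, limma adjusted p = 0.00875) in A3R against A0R, and EPCAM higher (1.02, limma adjusted p = 0.00588) and KRT7 lower (-0.91, limma adjusted p = 0.000278) in H3R against H0R. Their part in the results was not tested. In bulk samples like these, fewer cells of a type and less RNA per cell cannot be told apart.

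The first question is which of these genes differ between A549 cells with and without selection. A3R cells held more mRNA than A0R cells of the collagen IV chains COL4A6 and COL4A5 and of the collagen receptor chain ITGA2. COL4A2, which makes 3 of the 6 collagen IV chains, was also called higher, but 9 of the 12 fits with 1 array left out lost that call. In all, 4 of the 37 genes tested (10.8%) were called higher and 0 lower, where the background over all genes was 0.945% higher and 0.809% lower. The 37 genes were chosen with earlier results of these data known, so such shares are descriptive. At an unadjusted p under 0.05 there were 9 of the 37, against 9.97% of all genes. The median change over the 37 genes was 0.17 beside -0.0052 over all genes tested, and 23 of the 37 were above 0. Signals of all 3 A3R arrays lay outside the range of the A0R arrays for 8 of the 37, 7 higher and 1 lower, beside 12.7% of all genes. With replicate numbers blocked, the same 4 members were called higher and 0 lower, beside 3.32% of all genes called in either direction. With 1 array left out the count lay between 3 and 5, while all genes called numbered 179 to 286 in place of 297.

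COL4A6 encodes the alpha 6 chain of collagen IV, which assembles with alpha 5 in some epithelial and smooth muscle basement membranes. Its signal was 6.88, 6.82 and 6.64 on the A3R arrays, against 5.39, 5.48 and 5.21 on the A0R arrays. The groups were far apart relative to their spread, with every A3R array above every A0R array. The change was 1.42 (SE 0.13, 2.67-fold higher, limma adjusted p = 2.74e-05).

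COL4A5, whose alpha 5 chain also takes part in the kidney's collagen IV network, gave 5.99, 6.13 and 6.13 on the A3R arrays, against 4.90, 5.10 and 5.10 on the A0R arrays. Again no arrays overlapped. The difference was 1.05 (SE 0.11, 2.07-fold higher, limma adjusted p = 8.69e-05). Both genes of the head-to-head pair on X, the windows with few CpG printed above, thus rose, and the DNA methylation of these windows was not measured on these arrays. Without A0R replicate 2 the changes of COL4A6 and COL4A5 were 1.47 and 1.09 (limma adjusted p = 0.000142 and 0.000493).

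The pair on 13 encodes the alpha 1 and alpha 2 chains of the collagen IV found in nearly all basement membranes. COL4A2 had 8.0, 7.92 and 7.86 on the A3R arrays, against 7.61, 7.40 and 7.46 on the A0R arrays, with no overlap. It was 0.43 higher (SE 0.10, limma adjusted p = 0.0352). Leaving out A0R replicate 2 or 3, any 1 A3R array, H0R replicate 1 or any 1 H3R array ended this call (limma adjusted p = 0.0515 to 0.152), while the change stayed between 0.39 and 0.47. COL4A1 had 7.35, 6.73 and 6.80 in A3R, against 6.77, 6.14 and 6.42 in A0R. One A0R array, at 6.77, lay above an A3R array, and the gene did not pass the test (0.52, 95% interval 0.13 to 0.90, limma adjusted p = 0.251). Each A3R array of COL4A1 was above the A0R array of the same number, but the gene was not called with replicate numbers blocked either. COL4A3 and COL4A4, the third pair, averaged 4.52 ± 0.15 and 5.29 ± 0.083 in A3R, against 4.69 ± 0.071 and 5.26 ± 0.091 in A0R (SD, n = 3), with overlapping arrays.

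ITGA2, the alpha 2 chain that with beta 1 forms a collagen and laminin receptor, gave 8.89, 8.92 and 8.81 on the A3R arrays, against 7.90, 8.45 and 7.89 on the A0R arrays. All A3R arrays were higher, and A0R replicate 2 was the highest of the A0R arrays. The change was 0.79 (SE 0.14, 1.73-fold, limma adjusted p = 0.00686), and without A0R replicate 2 it was 0.97 (limma adjusted p = 0.000434). ITGA10, another collagen-binding alpha chain, had 4.56, 4.68 and 4.5 in A3R, against 4.43, 4.05 and 4.22 in A0R. These arrays did not overlap either, but the gene did not pass the test (0.34, 95% interval 0.10 to 0.59, limma adjusted p = 0.235).

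**Figure D1:**
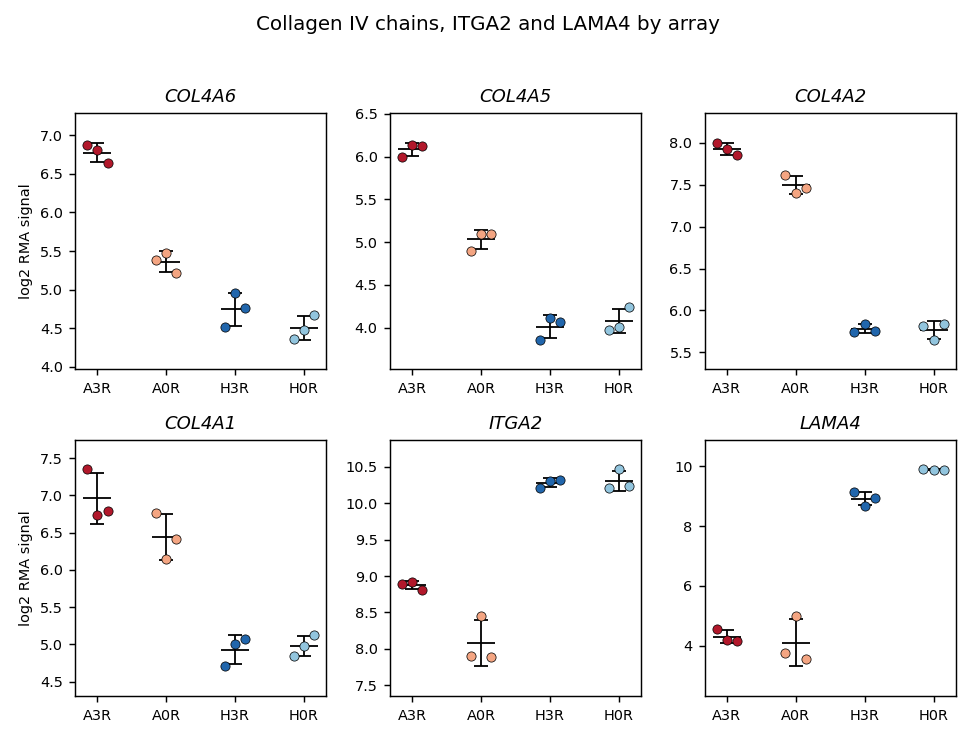
Log2 RMA signal (vertical axes, a separate range per gene) of 5 collagen IV and integrin genes and LAMA4 on each array of A3R, A0R, H3R and H0R; points are arrays and bars the mean ± SD of 3. COL4A6, COL4A5, COL4A2 and ITGA2 have all A3R arrays above all A0R arrays, while 1 A0R array of LAMA4 lies at 5.01, above all A3R arrays.

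Among the other integrin chains in A549, the alpha 6 partner ITGB4, part of the hemidesmosome receptor for laminin, averaged 9.14 ± 0.48 in A3R and 8.76 ± 0.45 in A0R (SD, n = 3). Its replicate 3 was the dimmest array in both groups, and the difference of 0.38 (95% interval -0.095 to 0.85) did not pass the test. Between arrays of the same number the differences of ITGB4 were 0.39, 0.40 and 0.33, and with replicate numbers blocked it was not called either (limma adjusted p = 0.288). ITGB1, the beta chain shared by most matrix receptors, had 12.13, 12.12 and 12.02 in A3R, against 11.90, 11.82 and 11.99 in A0R, and ITGB8, which with alpha V binds latent TGF-beta, had 5.02, 4.88 and 4.99 in A3R, against 4.67, 4.81 and 4.65 in A0R. In both genes all A3R arrays were above all A0R arrays, yet neither passed the test (limma adjusted p = 0.558 and 0.535). ITGA6, which pairs with beta 1 or beta 4 to bind laminin, was the 1 gene with all A3R arrays below all A0R arrays (9.57, 9.67 and 9.70 in A3R, against 9.76, 9.77 and 9.76 in A0R), with a difference of -0.12 that was not called. ITGA4, a chain best known from leukocytes, had 4.49, 4.67 and 4.47 in A3R, against 4.57, 4.0 and 4.05 in A0R. A0R replicate 1 of ITGA4 lay inside the A3R range, and the difference was 0.34 (limma adjusted p = 0.373), or 0.52 and called without that array (limma adjusted p = 0.0411).

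No laminin chain was called in A549. LAMA4, whose alpha 4 chain is typical of endothelial and other mesenchymal basement membranes, had 4.55, 4.18 and 4.16 in A3R, against 3.74, 5.01 and 3.56 in A0R. The middle A0R value is replicate 2, and it alone lay above all A3R arrays. Over all arrays the change was 0.19 (95% interval -0.39 to 0.78, limma adjusted p = 0.928), and without A0R replicate 2 it was 0.64 (limma adjusted p = 0.062). LAMB1 and LAMC1, the beta 1 and gamma 1 chains found in most laminins, averaged 10.76 ± 0.19 and 10.06 ± 0.20 in A3R, against 10.71 ± 0.15 and 10.16 ± 0.22 in A0R (SD, n = 3), with 95% intervals of the change of -0.22 to 0.33 and -0.36 to 0.17. LAMA5, the alpha chain of many adult epithelial laminins, averaged 8.75 ± 0.33 in A3R and 8.87 ± 0.34 in A0R, and LAMB3, a chain of the epithelial laminin of hemidesmosomes, 7.59 ± 0.26 in A3R and 7.69 ± 0.11 in A0R. For both genes the arrays of A3R and A0R overlapped. Among the linkers, NID2 had 6.35, 5.61 and 5.91 in A3R, against 5.51, 5.08 and 5.87 in A0R, and NID1 had 5.41, 5.45 and 5.10 in A3R, against 5.09, 4.82 and 5.11 in A0R. Their differences, 0.47 (95% interval 0.035 to 0.91) and 0.31 (95% interval 0.013 to 0.61), were not called (limma adjusted p = 0.444 and 0.475). The proteoglycan genes HSPG2 and AGRN differed by 0.023 and -0.044, with intervals of -0.22 to 0.27 and -0.32 to 0.23.

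The same question was asked of HTB56. Here the selected cells carried less mRNA of the integrin chains ITGA11, ITGB3, ITGB5 and ITGA3 and of the laminin chain LAMA4, and more of ITGB1, the laminin chains LAMC1 and LAMB3, and NID2. Of the 37 genes, 4 (10.8%) were called higher and 5 (13.5%) lower, where the background was 8.57% higher and 10.9% lower, so the share of members called lay near that of all genes. The median change was 0.0145 beside 0.0218 over all genes. Arrays of the groups did not overlap for 11 of the 37, 5 higher and 6 lower, beside 34.3% of all genes. Without H3R replicate 3 the count called higher was 1, and over all arrays left out in turn it lay between 1 and 4. In the same fits all genes called, in both directions together, were 2748 without H3R replicate 3 and between 2491 and 3432 over all arrays left out in turn. With replicate numbers blocked, 6 members (16.2%) were called higher and 6 (16.2%) lower, where the block also raised the background, to 12.9% higher and 15.1% lower.

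Some markers of other cell types moved in the same comparison, where 8.57% of all genes were called higher and 10.9% lower. The part of these markers in the results on HTB56 was not tested. Of the 10 fibroblast markers 7 could be tested, and 4 were called higher and 0 lower in H3R, namely COL1A1 (1.41), COL3A1 (1.29), LUM (1.78) and PDGFRA (0.71). COL1A2 (0.049), COL6A3 (0.14) and PDGFRB (-0.18) were tested and not called, and DCN, FAP and ASPN were above the 20th percentile on 0 of 12 arrays. The summed signal of the 10 was 59.9 to 60.9 on the H3R arrays, against 54.2 to 56.1 on the H0R arrays. This sum includes the 4 called genes, so it is no separate result. Of 8 endothelial markers tested, 0 were called (1 had an unadjusted p under 0.05), the summed signal of the 10 listed was 43.7 to 45.3 in H3R and 43.7 to 44.1 in H0R, and EMCN was above the percentile on no array. Of 8 leukocyte markers tested, 2 were called higher, CD68 (0.65) and LYZ (1.66). The summed leukocyte signal over 9 genes, which includes CD68 and LYZ, was 45.7 to 47.2 in H3R and 43.2 to 44.0 in H0R, with PTPRC above the percentile on no array.

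ITGA11, a collagen-binding alpha chain known from fibroblasts and other mesenchymal cells, gave 5.71, 5.59 and 5.53 on the H3R arrays, against 6.80, 6.85 and 6.76 on the H0R arrays. The lowest H0R array was more than 1 unit above the highest H3R array. The gene fell by 1.2 (SE 0.16, 2.29-fold lower, limma adjusted p = 6.95e-05).

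ITGB3, the beta 3 chain of the vitronectin receptor when paired with alpha V, had 4.59, 4.65 and 4.60 in H3R, against 5.96, 5.74 and 5.58 in H0R. The groups did not overlap, and H3R was close to both A549 groups (4.67 ± 0.07 in A3R and 4.71 ± 0.028 in A0R; SD, n = 3). The change was -1.15 (SE 0.10, 2.21-fold lower, limma adjusted p = 2.21e-06).

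ITGB5, which also pairs with alpha V to bind vitronectin, had 9.75, 9.56 and 9.84 in H3R, against 10.21, 10.31 and 10.28 in H0R. ITGA3, whose alpha 3 chain with beta 1 is a main epithelial receptor for laminin, had 9.85, 9.71 and 9.57 in H3R, against 10.34, 10.31 and 10.07 in H0R. All H3R arrays lay below all H0R arrays for both genes. The changes were -0.55 (SE 0.10, limma adjusted p = 0.0016) and -0.53 (SE 0.12, limma adjusted p = 0.00424). ITGAV, the alpha V chain itself, averaged 10.19 ± 0.11 in H3R and 10.35 ± 0.13 in H0R (SD, n = 3), with a 95% interval of the change of -0.38 to 0.069 and overlapping arrays. The fibronectin receptor chain ITGA5 averaged 8.66 ± 0.058 in H3R and 8.91 ± 0.33 in H0R, again with overlap.

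Unlike these chains, ITGB1 rose, with 11.37, 11.40 and 11.56 in H3R, against 11.01, 11.06 and 11.13 in H0R and no overlap. Its change was 0.37 (SE 0.095, limma adjusted p = 0.0115), a call that was lost without H0R replicate 1 or H3R replicate 3 (limma adjusted p = 0.0514 and 0.059). None of the beta 1 partners ITGA11, ITGA3, ITGA2, ITGA6 and ITGA7 was called higher, beside 8.57% of all genes. The other alpha chains tested, ITGA5, ITGAV, ITGA4, ITGA9 and ITGA10, were not called in either direction. ITGA11 and ITGA3 fell. ITGA2 gave 10.21, 10.31 and 10.32 in H3R, against 10.21, 10.46 and 10.23 in H0R (change -0.022, 95% interval -0.32 to 0.27). ITGA6 averaged 10.08 ± 0.10 in H3R and 10.18 ± 0.066 in H0R, and ITGA7, a laminin-binding chain of muscle, 5.31 ± 0.044 in H3R and 5.46 ± 0.091 in H0R. Neither was called, although all H3R arrays of ITGA7 were below all H0R arrays.

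LAMC1 had 10.46, 10.43 and 10.43 in H3R, against 9.91, 9.88 and 9.87 in H0R. Both groups were tight and did not overlap, and the gene rose by 0.55 (SE 0.12, limma adjusted p = 0.00495). LAMB3 had 7.54, 7.71 and 7.60 in H3R, against 7.46, 7.17 and 6.53 in H0R, where replicate 3 at 6.53 was lowest. It was 0.57 higher (SE 0.19, limma adjusted p = 0.0493). Without H0R replicate 3 the change was 0.31, and the call was lost without any 1 A0R or H3R array, A3R replicate 1, or H0R replicate 2 or 3 (limma adjusted p = 0.053 to 0.206).

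LAMA4 moved the other way, with 9.12, 8.69 and 8.95 in H3R, against 9.90, 9.88 and 9.88 in H0R. The H0R arrays were nearly equal and all above the H3R arrays. The gene fell by 0.97 (SE 0.27, 1.95-fold lower, limma adjusted p = 0.0208). The spread that this test shares over all groups includes A0R replicate 2, and without that array the limma adjusted p was 0.000186. The call was lost without H0R replicate 1 or 2 or H3R replicate 2 (limma adjusted p = 0.0565 to 0.0866).

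LAMA5 had 7.80, 7.92 and 7.49 in H3R, against 7.21, 7.66 and 7.02 in H0R, and LAMA1, the alpha chain of embryonic laminin, had 4.71, 4.54 and 4.75 in H3R, against 4.29, 4.40 and 4.56 in H0R. In both genes each H3R array was above the H0R array of the same number, while the groups overlapped. Their changes, 0.44 and 0.25, were called with the replicate number as a block (limma adjusted p = 0.00308 and 0.0441) and not without it (0.174 and 0.143). AGRN, a heparan sulphate proteoglycan that binds laminin, had 7.45, 7.38 and 7.13 in H3R, against 7.63, 7.80 and 7.38 in H0R, and its change of -0.28 was likewise called only with the block (limma adjusted p = 0.015, against 0.154 without it).

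NID2 had 4.82, 4.88 and 4.91 in H3R, against 4.51, 4.28 and 3.99 in H0R, with no overlap and a change of 0.61 (SE 0.20, limma adjusted p = 0.0486). Its call was lost without A0R replicate 1, A3R replicate 3, H0R replicate 2 or 3, or any 1 H3R array (limma adjusted p = 0.0529 to 0.179). NID1, by contrast, averaged 4.06 ± 0.16 in H3R and 4.05 ± 0.21 in H0R (SD, n = 3), with an interval of the change of -0.29 to 0.30. None of the 6 collagen IV genes was called in HTB56, beside 8.57% of all genes called higher and 10.9% lower. At an unadjusted p under 0.05 there were 0 of the 6, beside 28.9% of all genes. With only 6 genes, such counts cannot be told apart from the shares of all genes. COL4A6 had 4.52, 4.95 and 4.76 in H3R, against 4.36, 4.48 and 4.67 in H0R, COL4A5 had 3.86, 4.11 and 4.07 in H3R, against 3.98, 4.01 and 4.24 in H0R, and COL4A2 had 5.75, 5.84 and 5.75 in H3R, against 5.81, 5.65 and 5.84 in H0R. The arrays overlapped for all 3 genes. COL4A1 averaged 4.93 ± 0.19 in H3R and 4.98 ± 0.14 in H0R.

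**Figure D2:**
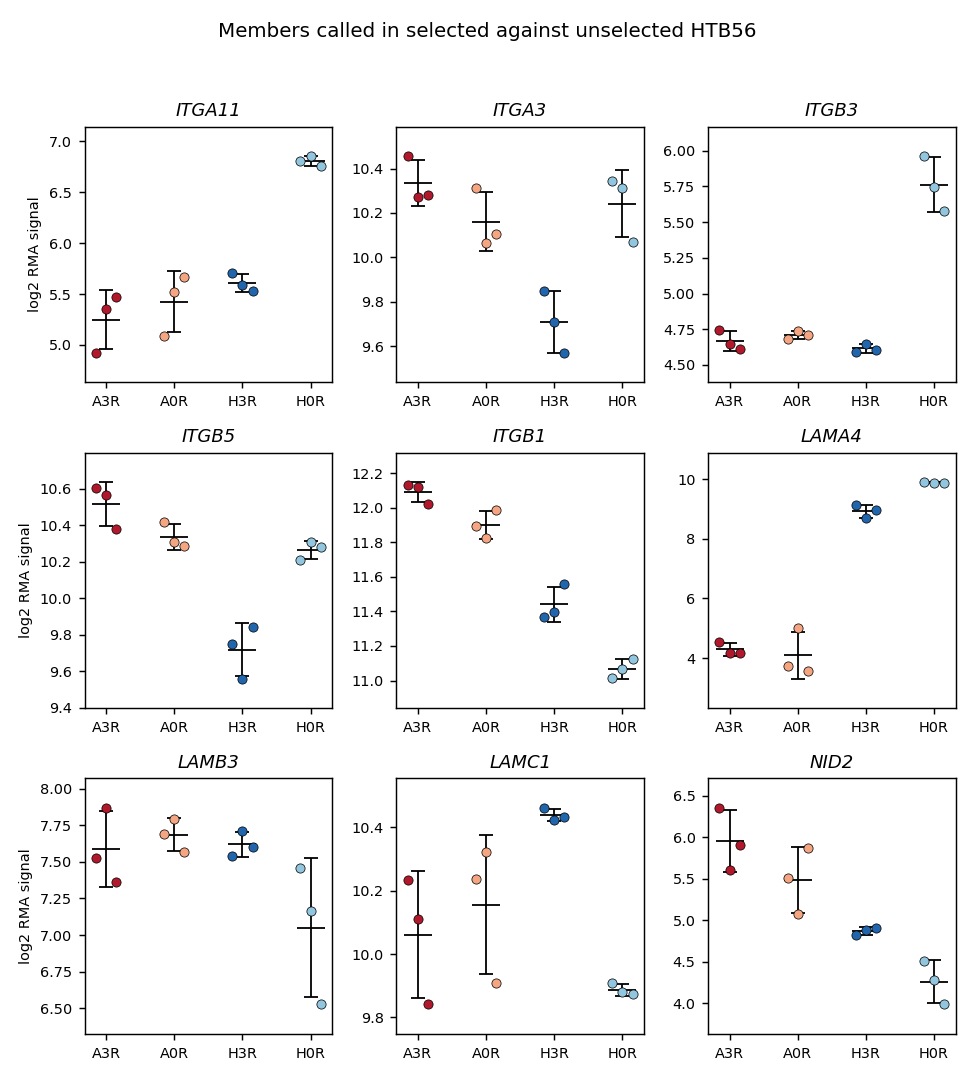
Log2 RMA signal (vertical axes, a separate range per gene) of the 9 genes called in H3R against H0R, on each array of A3R, A0R, H3R and H0R; points are arrays and bars the mean ± SD of 3. H3R lies below H0R without overlap for ITGA11, ITGA3, ITGB3, ITGB5 and LAMA4, and above it for ITGB1, LAMB3, LAMC1 and NID2.

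**Figure D3:**
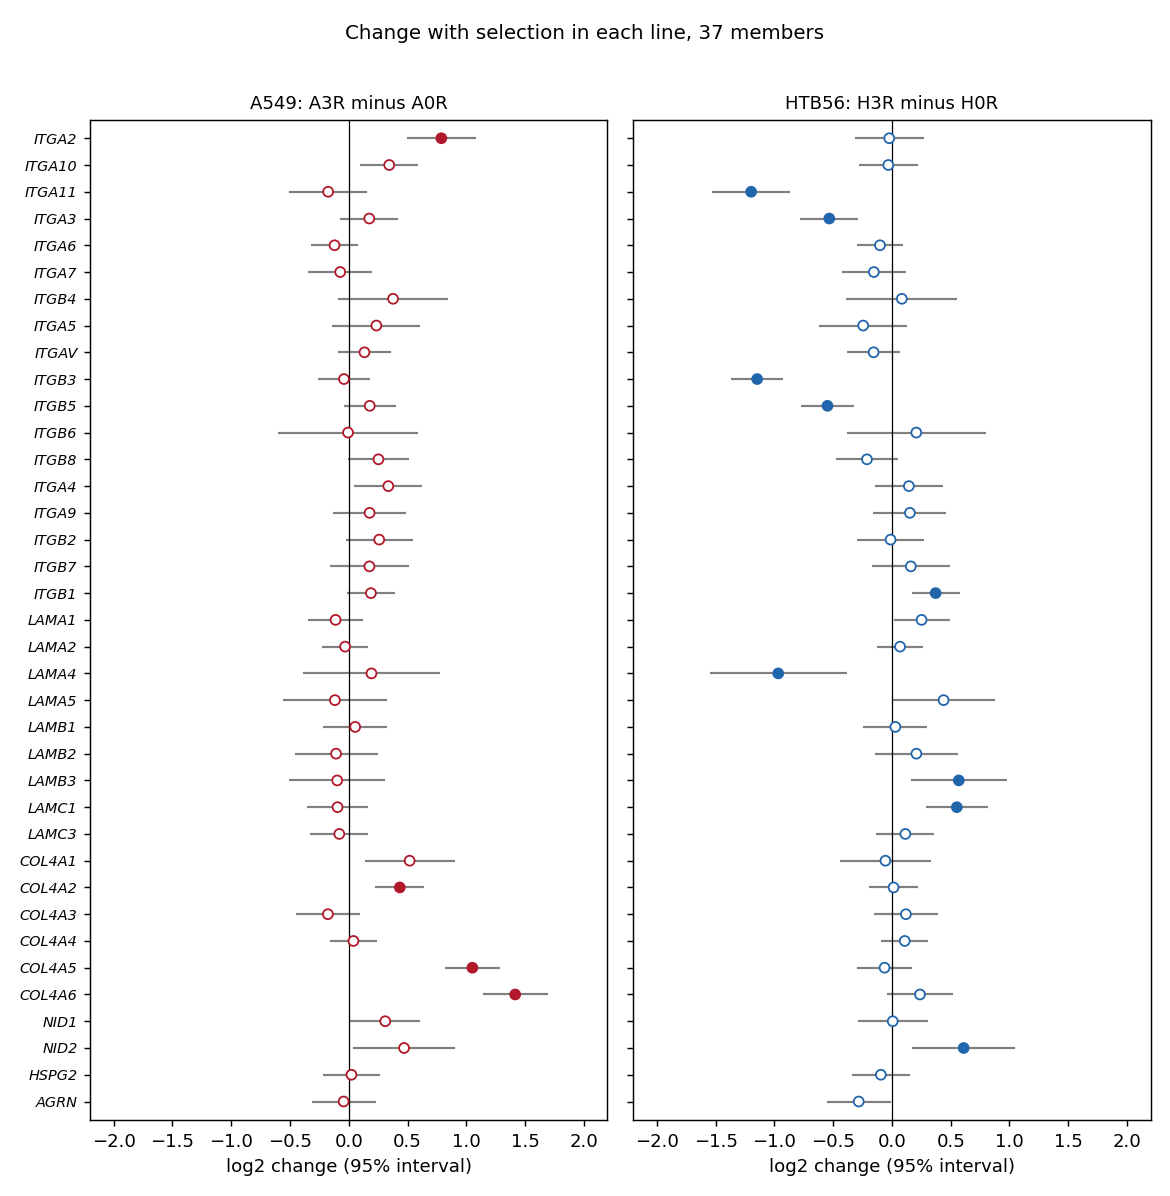
Log2 change with selection for the 37 genes tested, A3R minus A0R on the left and H3R minus H0R on the right; points are estimates, lines 95% intervals, and filled points are called at a limma adjusted p below 0.05. The 4 called genes of A549 lie to the right of 0, and the 9 of HTB56 lie on both sides.

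Whether selection moved a gene differently in the lines was tested as the change in HTB56 minus the change in A549. Of the 37 genes, 1 (2.7%) was called higher and 7 (18.9%) lower in this term, where the background was 5.22% higher and 6.58% lower. The median was -0.19 beside 0.0174 over all genes. In the plot of changes in each line, 33 of the 37 points in A549 and 28 in HTB56 are open, that is, not called. The 7 lower genes fall into 2 kinds. COL4A6 (-1.18, SE 0.18, limma adjusted p = 0.000644), COL4A5 (-1.11, SE 0.16, limma adjusted p = 0.000263) and ITGA2 (-0.81, SE 0.19, limma adjusted p = 0.0135) are genes that rose in A549, with changes in HTB56 of 0.24, -0.062 and -0.022. ITGB3 (-1.11), ITGA11 (-1.02), ITGB5 (-0.73) and ITGA3 (-0.71) are genes that fell in HTB56 (limma adjusted p of the 4 differences = 0.000174 to 0.0107). Their changes in A549 were -0.041, -0.18, 0.18 and 0.17. ITGB3 and ITGA11 averaged 4.71 and 5.42 in A0R, already near their H3R means of 4.62 and 5.61. ITGB5 and ITGA3 averaged 10.34 and 10.16 in A0R. Whether the low levels of ITGB3 and ITGA11 left room for a fall in A549 was not tested.

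LAMC1 was the gene called higher in this term (0.65, SE 0.17, limma adjusted p = 0.0246), with a change of 0.55 in HTB56, against -0.10 in A549. The gene missed the threshold with A0R replicate 1 or 2, A3R replicate 3, H0R replicate 2, or H3R replicate 1 or 2 left out (limma adjusted p = 0.0514 to 0.0641). With the replicate block, ITGA5 (-0.48), COL4A2 (-0.42) and LAMA5 (0.56) were also called (limma adjusted p = 0.0451, 0.0253 and 0.00906), which made 2 members (5.41%) higher and 9 (24.3%) lower beside 9.82% and 10.6% of all genes. With the block and without A0R replicate 2, ITGA5 (-0.51, limma adjusted p = 0.0618) and COL4A2 (-0.39, limma adjusted p = 0.0661) missed the threshold and LAMA5 (0.57, limma adjusted p = 0.0214) passed it. The difference for LAMA4 was -1.16 (limma adjusted p = 0.0683), and without A0R replicate 2 it was -1.61 and called (limma adjusted p = 0.000181). The difference for ITGA2 was -0.99 without that array (limma adjusted p = 0.000816). For ITGB1 and NID2, called in HTB56, the difference between lines was not called (0.18 with an interval of -0.10 to 0.47, and 0.14 with an interval of -0.48 to 0.76).

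The lines themselves differed in most of these genes. HTB56 carried more LAMA4, ITGA2, ITGB8 and ITGA5 mRNA, and A549 more ITGB4, ITGB1, collagen IV, nidogen, LAMA5 and ITGB6 mRNA. Between the selected lines, H3R against A3R, 8 of the 37 (21.6%) were called higher and 19 (51.4%) lower, where the background was 24.9% higher and 19.7% lower. Between the unselected lines, H0R against A0R, 8 (21.6%) were called higher and 17 (45.9%) lower, where the background was 24.9% higher and 20.3% lower. The median difference was -0.40 between the selected and -0.27 between the unselected lines, beside 0.0064 and -0.0138 over all genes. With the replicate block LAMB1, ITGA11 and LAMA2 were also called higher between the selected lines, and LAMB1 higher and ITGA4 and LAMC1 lower between the unselected lines (limma adjusted p = 0.0243 to 0.0493). The block counts were 11 higher and 19 lower between the selected lines, beside 29.3% and 23.5% of all genes, and 9 higher and 19 lower between the unselected lines, beside 29.1% and 24.6%. With the block and without A0R replicate 2, LAMB1, ITGA11 and LAMA2 missed the threshold between the selected lines (limma adjusted p = 0.0534 to 0.0586). Between the unselected lines LAMC1 missed it (limma adjusted p = 0.169), while LAMB1 and ITGA4 passed (limma adjusted p = 0.0427 and 0.0198). Without A0R replicate 2 the differences of H0R from A0R were 6.24 for LAMA4, 2.4 for ITGA2, -1.61 for COL4A1 and -1.43 for NID2, each called. These comparisons share their arrays with those of selection.

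LAMA4 differed most in both comparisons, with the values already given. It was 4.62 higher in H3R than in A3R (SE 0.27, limma adjusted p = 3.7e-09) and 5.78 higher in H0R than in A0R (SE 0.27, limma adjusted p = 2.48e-10). Differences against signals as dim as those of A549 are compressed by RMA. ITGB4 was the reverse, with 5.51, 5.44 and 5.34 in H3R, against 9.44, 9.38 and 8.58 in A3R, and 5.28, 5.42 and 5.34 in H0R, against 9.05, 8.98 and 8.25 in A0R. Its differences were -3.70 (13.0-fold lower) and -3.41 (10.7-fold lower), while its alpha partner ITGA6 was 0.44 and 0.42 higher in HTB56. ITGB1 was called lower in HTB56 in both comparisons, averaging 11.44 in H3R against 12.09 in A3R, and 11.07 in H0R against 11.90 in A0R.

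All 6 collagen IV genes were lower in H0R than in A0R, with differences from -1.73 for COL4A2 and -1.46 for COL4A1 to -0.36 for COL4A3. Between the selected lines COL4A2 (-2.14), COL4A5 (-2.07), COL4A6 (-2.03), COL4A1 (-2.03) and COL4A4 (-0.42) were called lower in H3R, and COL4A3 (-0.066) was not. The COL4A3 call between unselected lines was lost without A0R replicate 2 or 3 or H0R replicate 1 or 2 (limma adjusted p = 0.0538 to 0.152). NID1, NID2, HSPG2 and AGRN were also called lower in HTB56 in both comparisons, from -0.43 for HSPG2 to -1.26 for NID1 between the selected lines. The HSPG2 call between unselected lines (-0.31, limma adjusted p = 0.0379) was lost without A0R replicate 2 or H0R replicate 1 or 3 (limma adjusted p = 0.0611 to 0.183).

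ITGB8 had 6.56, 6.28 and 6.26 in H3R and 6.61, 6.78 and 6.35 in H0R, which put it 1.40 above A3R and 1.87 above A0R. ITGA2 was 1.41 higher in H3R than in A3R and 2.22 higher in H0R than in A0R, so the gap was narrower between the selected lines. ITGB6, whose beta 6 chain with alpha V activates latent TGF-beta in epithelia, had 4.19, 4.18 and 4.39 in H3R, against 5.30, 5.42 and 6.34 in A3R, and 3.91, 3.97 and 4.27 in H0R, against 5.38, 5.31 and 6.39 in A0R. Its replicate 3 was the brightest array in all 4 groups, and the differences were -1.43 and -1.64. LAMA5 was lower in HTB56, with differences of -1.01 between the selected and -1.57 between the unselected lines, and ITGA5 was higher by 0.76 and 1.24.

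ITGB3 and ITGA11 were called higher in H0R than in A0R (1.05 and 1.38), and between the selected lines their differences were -0.055 and 0.36, neither of which was called without the block. ITGB5 and ITGA3 followed another order, with differences between unselected lines of -0.072 and 0.08 that were not called, and with lower signals in H3R than in A3R, at differences of -0.80 and -0.63 (limma adjusted p = 1.64e-05 and 0.000397). Of the leukocyte-type chains, ITGA9 averaged 4.53 ± 0.14 in H3R and 4.49 ± 0.29 in A3R, and ITGB7 5.27 ± 0.30 in H3R and 5.25 ± 0.087 in A3R, with no call in any comparison. ITGB2, the beta chain of leukocyte integrins, was called lower in H3R than in A3R (-0.53), as was ITGA4 (-0.52). LAMA2, the muscle laminin alpha chain, averaged 4.01 ± 0.089 in H3R and 3.81 ± 0.052 in A3R, close to the dim end of the arrays. LAMB2, a beta chain of vessel and kidney laminins, was called lower in HTB56 in both comparisons (-0.64 and -0.95), whereas LAMB1 was called in neither without the block (0.19 and 0.21). LAMC3, the gamma 3 chain, was called lower in H0R (-0.38), a call lost without A0R replicate 3 or H0R replicate 1 (limma adjusted p = 0.0543 and 0.0658).

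**Figure D4:**
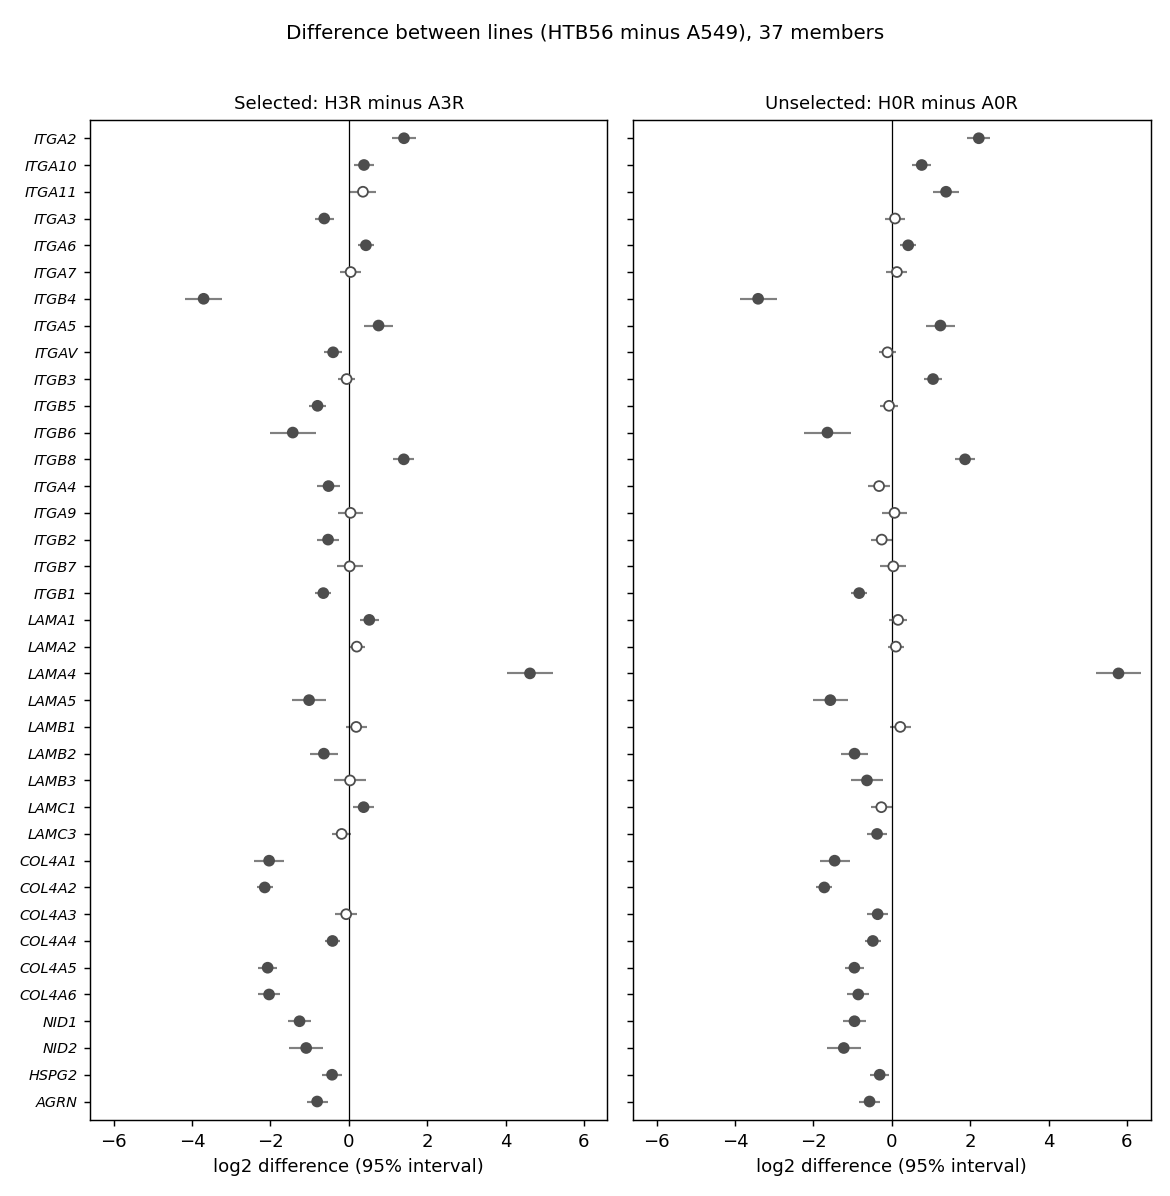
Log2 difference between the lines (HTB56 minus A549) for the 37 genes tested, H3R minus A3R on the left and H0R minus A0R on the right; points are estimates, lines 95% intervals, and filled points are called at a limma adjusted p below 0.05. LAMA4 lies far to the right and ITGB4 far to the left in both panels, and COL4A5 and COL4A6 lie farther left between the selected lines.

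Genes that act with these members were counted in 3 lists, which were chosen with earlier results of these data known, so their shares are descriptive. Of 36 adaptor and signalling genes at integrin tails, 1 (2.78%) was called higher and 0 lower in A3R against A0R, beside 0.945% of all genes higher, and it was TNS4 (0.87), a tensin that binds integrin beta tails. In H3R against H0R 6 (16.7%) were called higher and 3 (8.33%) lower, beside 8.57% and 10.9% of all genes, with FERMT1 (1.24), the epithelial kindlin that activates integrins, TGFB1I1 (0.69), CSRP1 (0.62) and RSU1 (0.61) leading the rises, and TNS3 (-1.07), LPXN (-0.97) and ITGB1BP1 (-0.37), which restrains beta 1 activation, lower. The median change over the list was -0.014 in A549 and -1e-04 in HTB56.

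Of 27 other basement membrane and hemidesmosome genes, TINAGL1, a matrix glycoprotein, was the 1 (3.7%) called higher in A3R (1.07), with 0 lower, beside 0.945% of all genes higher. In H3R 2 (7.41%) were called higher, beside 8.57% of all genes, NTN4 (1.53), a netrin that binds laminin, and P3H2 (1.44), a prolyl hydroxylase that acts on collagen IV. There 6 (22.2%) were called lower, beside 10.9% of all genes, led by SPOCK1 (-1.61), SPARC (-1.04), a collagen-binding matrix protein, TINAGL1 (-0.81) and FBLN1 (-0.68). TINAGL1 was thus called in opposite directions in the lines, and the difference itself was -1.88 (SE 0.19, limma adjusted p = 1.7e-05). The median changes were 0.0298 in A549 and 0.0968 in HTB56.

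Of 22 secreted or surface ligands of integrins, 3 (13.6%) were called higher in A3R, beside 0.945% of all genes, FBN2 (1.5), a fibrillin, ICAM1 (1.25), a ligand of leukocyte integrins, and TGFB1 (0.54), whose latent form binds alpha V integrins. LTBP1 (-0.70), which tethers latent TGF-beta to the matrix, was the 1 (4.55%) called lower, beside 0.809% of all genes. In H3R 4 (18.2%) were called higher, beside 8.57% of all genes, MFGE8 (0.64), FBN1 (0.56), LTBP1 (0.46) and THBS1 (0.39), and 3 (13.6%) lower, beside 10.9%, SPP1 (-1.54), an RGD ligand also called osteopontin, TNC (-1.34) and TGFBI (-0.56). The median changes were 0.11 in A549 and 0.0637 in HTB56, and LTBP1 differed between the lines by 1.16 (SE 0.22, limma adjusted p = 0.00271).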

How the data were processed

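The deposited values are log2 signals of 33297 probe sets on 12 arrays. Per the submitters' processing notes the authors made them by RMA, run in Expression Console of Affymetrix (versions not stated there). The steps of RMA are background correction, quantile normalization and probe summary, so a shift of all mRNA is removed and dim genes are compressed. Scanner files were not used here. Total RNA was column-purified and biotin-labelled, per the labels' protocols.

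Probe sets with 1 symbol numbered 19460, with several 1754, and 12083 were not listed. Each gene was its brightest such probe set, kept where above the array's 20th percentile (3.48 on average) on at least 3 of 12 arrays. Replicate numbers, whose meaning is not given, pair the samples from the data: deviations from group means correlated at 0.160 to 0.549 between arrays of the same number and at -0.417 to 0.205 otherwise. Tests used limma 3.58.1 in R 4.3.3 (lmFit, eBayes, two-sided, Benjamini-Hochberg over 16939 genes, threshold 0.05, 1 mean per group over all arrays) and were tested on simulated data. Sequences and figures used Python 3.11.15, pandas 2.3.3 and matplotlib 3.10.9. No 2 arrays were identical. Named were all members called in a selection comparison, the 8 largest differences between lines, and up to 4 genes per list and direction. Members, lists and named-gene rules were chosen with earlier results of these data known.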

Additional observations from a re-analysis of the deposited data

Results flagged for a closer look

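The change with selection differed between the lines, by the test of the difference itself, in 8 of the 37 genes (HTB56 minus A549, limma adjusted p in brackets). In 7 the change was lower in HTB56, namely COL4A6 at -1.18 (0.000644), COL4A5 at -1.11 (0.000263), ITGB3 at -1.11 (0.000174), ITGA11 at -1.02 (0.00691), ITGA2 at -0.81 (0.0135), ITGB5 at -0.73 (0.0046) and ITGA3 at -0.71 (0.0107). In LAMC1 it was higher, at 0.65 (0.0246). ITGB3 and ITGA11 were already near their H3R levels in A0R, as given above. Of all genes tested, 2000 were called in this term. No outlier test was run on a gene's single arrays, since each group has 3.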

How the results depend on the processing

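Alternatives were no filter or a stricter filter on dim probe sets, the mean of a gene's probe sets, cyclic loess, median centring, a fit on the 6 arrays compared (not possible for the difference between lines), the replicate block, eBayes with trend and robust settings, a threshold of 0.01, and each array left out in turn. No called value of a member changed sign under any of these, and scaling moved the median of all genes by at most 0.0467. At the threshold of 0.01, 5 members were called in H3R against H0R (1 higher, 4 lower) in place of 9, and 5 (0 higher, 5 lower) in place of 8 in the difference between lines. All genes called fell there too, to 2039 in place of 3298 and to 1036 in place of 2000. The other counts of members, taken in both directions together, stayed within 1.5 times. Without 1 array they ranged from 3 to 5 for A3R against A0R, 6 to 9 for H3R against H0R, 7 to 9 for the difference between lines, 22 to 25 for H0R against A0R and 26 to 28 for H3R against A3R. All genes called ranged over the same fits from 179 to 286, 2491 to 3432, 1524 to 1951, 6705 to 7805 and 6656 to 7669. By direction, H3R against H0R ranged from 1 to 4 higher (1 without H3R replicate 3, 2 without A0R replicate 1, H0R replicate 2 or 3, or H3R replicate 1 or 2) and 4 to 5 lower, and the difference between lines from 0 to 2 higher and 7 to 8 lower. With the replicate block the counts were 4, 12, 11, 28 and 30 in place of 4, 9, 8, 25 and 27, and all genes called were 562, 4744, 3458, 9093 and 8933 in place of 297, 3298, 2000, 7648 and 7554. Combined with leaving out A0R replicate 2, a setting chosen after seeing the data, the block gave 4, 12, 10, 28 and 27. All genes called were then 337, 4671, 2901, 8318 and 8869. In A549 the 4 members then included LAMA4 at 0.70 (limma adjusted p = 0.012) and no longer COL4A2 (0.40, limma adjusted p = 0.0743). LAMA4 is among the genes that set A0R replicate 2 apart, so its call in this setting is no separate check. With all genes left in, LAMB3 and NID2 in HTB56 just missed the threshold (limma adjusted p = 0.0516 and 0.0508), with loess NID2 did (0.0868), and on the 6 arrays of its own comparison COL4A2 in A549 (0.153) and LAMB3 in HTB56 (0.0718) did. Between the lines, LAMC1 in H3R against A3R was lost with loess (0.22, limma adjusted p = 0.149) and without A3R replicate 3 or H3R replicate 1 (0.103 and 0.0563), and HSPG2 in H0R against A0R on its 6 arrays (0.0688). The calls of ITGA2, COL4A5 and COL4A6 in A549 and of ITGA11, ITGA3, ITGB3, ITGB5 and LAMC1 in HTB56 held in each of these settings. ITGA8 is too dim to test, and dim chains such as LAMA2 and ITGA9 have only compressed differences.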
